A study of Homo sapiens with 10 samples.

Results

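The genes described here are the translation factors and aminoacyl-tRNA synthetases named in m6A peak lists from V16A cells, a castration-resistant prostate cancer line. A gene was a member if its name in any of the 7 lists began with EIF or EEF and a digit, began with GSPT or PABP, was ETF1, or had the form of a synthetase symbol such as AARS (cytosolic) or AARS2 (mitochondrial). The rule found 48 of the 5000 names in the lists, with 259 of their 26273 peaks. By role, these were 13 initiation genes, 5 regulators of translation, 7 elongation factors, 2 termination factors, 2 poly(A)-binding proteins, 6 cytosolic and 10 mitochondrial synthetases, and 3 pseudogene or antisense names. One member, whose gene lies on the Y chromosome, is counted in every total and not described.

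MeRIP-seq captures RNA fragments with an antibody against N6-methyladenosine (m6A) and calls a peak where the captured RNA exceeds the input. V16A cells were held in hypoxia (2 MeRIP libraries) or normoxia (2 MeRIP libraries), and 1 more MeRIP library carried the label EU 40min with no oxygen condition; no genetic change or drug was named for any group. Each MeRIP library had its own peak list, and 1 further list existed for each condition. The 5 input libraries had no list of their own, so RNA levels were not analysed here. The absence of a listed peak does not show that a gene's RNA lacked m6A, or that the gene was silent. Replicates were not stated to be separate cultures.

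Translation starts when initiation factors bring the small ribosomal subunit and the initiator tRNA to the capped 5′ end of an mRNA, with eIF4G as the scaffold between the cap, the poly(A)-binding protein and eIF3. Elongation factors then deliver charged tRNAs and move the ribosome, and release factors end the chain; the tRNAs are charged by a synthetase for each amino acid, encoded separately for the cytosol and for mitochondria in most cases. In oxygen shortage, cells are known to limit initiation through mTOR and the eIF4E-binding proteins and through phosphorylation of eIF2 by kinases such as PERK, and to limit elongation through eEF2 kinase. mRNAs of elongation factors typically carry a 5′ terminal oligopyrimidine tract, which begins with a C at the first base of the mRNA and places them under mTOR control.

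The lists differed in length, and a list of more peaks can name more genes. The number of names did not follow length alone: the EU 40min library named 2389 genes, and the longer hypoxia replicate 2 list named 2151. Hypoxia replicates 1 and 2 held 2879 and 6621 peaks, normoxia replicates 1 and 2 held 212 and 1563, and the EU 40min library held 5044. The hypoxia and normoxia condition lists held 7669 and 2285. Read depth is unknown, because the lists carry no counts. Marker genes of another cell type were present as well: of 14 T and NK cell markers, the hypoxia libraries listed 10 and 11, the normoxia libraries 6 and 0 and the EU 40min library 11. Of 12 prostate and epithelial markers, 2, 4, 1, 5 and 8 had a peak in the same order; FOLH1, KRT8, KRT18 and CDH1 had none. The part of these markers' source cells in the translation genes' peaks was not tested.

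The starts of the members' mRNAs are shown first, because the tract at the first base is the sequence feature that elongation factor mRNAs are known for. Of the 48 members, 37 had a RefSeq (GRCh38.p14) start window. A C at the annotated first base followed by at least 4 further C or T bases, read on the gene's strand, was found in 5 of the 37 (13.5%). Counted by gene in the same way, it was in 5.14% of all RefSeq genes with a window and in 7.49% of the matched names of the 7 lists; counted by window, it was in 4.07% of all 35116. By class it was found in 3 of 5 elongation factors, 1 of 10 initiation genes and 1 of 8 mitochondrial synthetases, and in none of 6 cytosolic synthetases. The first 30 bases follow, with the unbroken C and T run in capitals. EEF1G, an elongation factor that does not meet this rule, is added for comparison. Its annotated first base is an A, followed by a C and a run of T. A tract starting at the next base would not be counted.
EEF1A1: CTTTTTCgcaacgggtttgccgccagaaca
EEF1B2: CCTTTTTCCTCTCTTCagcgtggggcgccc
EEF2: CTCTTCCgccgtcgtcgccgccatcctcgg
EIF2A: CTCTTTCCgggacaacatggcgccgtccac
WARS2: CTTCTCaagatggcgctgcactcaatgcgg
EEF1G: actttgcggcagcgccgagaaccccacccc

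These 5 genes did not share a pattern of peaks. EEF1A1 had peaks in both hypoxia libraries and neither normoxia library, EEF1B2 in hypoxia replicate 2, and EEF2, EIF2A and WARS2 in normoxia replicate 2 and not in a hypoxia library. In the condition lists, WARS2 had 2 peaks under hypoxia and 1 under normoxia. EEF1A1 and EEF1B2 had condition list peaks under hypoxia only, and EEF2 and EIF2A had none. All 5 had a peak in the EU 40min library, where 47.8% of all 5000 names and 47.9% of the members had one. Whether the tract bears on this was not tested. A window can hold several annotated starts, and which one these cells used was not analysed here.

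Hypoxia replicate 1 listed 7 of the 48 members (14.6%, against 25.2% of all 5000 names) and hypoxia replicate 2 listed 26 (54.2%, against 43.0%). Normoxia replicate 1 listed 2 members, AARS and EEF1A2 (4.17%, against 2.78%), and normoxia replicate 2 listed 13 (27.1%, against 17.9%). The EU 40min library listed 23 (47.9%, against 47.8%). The members' share thus lay below the background in 1 hypoxia library and above it in the other, and at the background in the EU 40min library. No test was made of hypoxia against normoxia, since 2 libraries against 2 cannot give an exact two-sided p below 0.333.

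**Figure D1:**
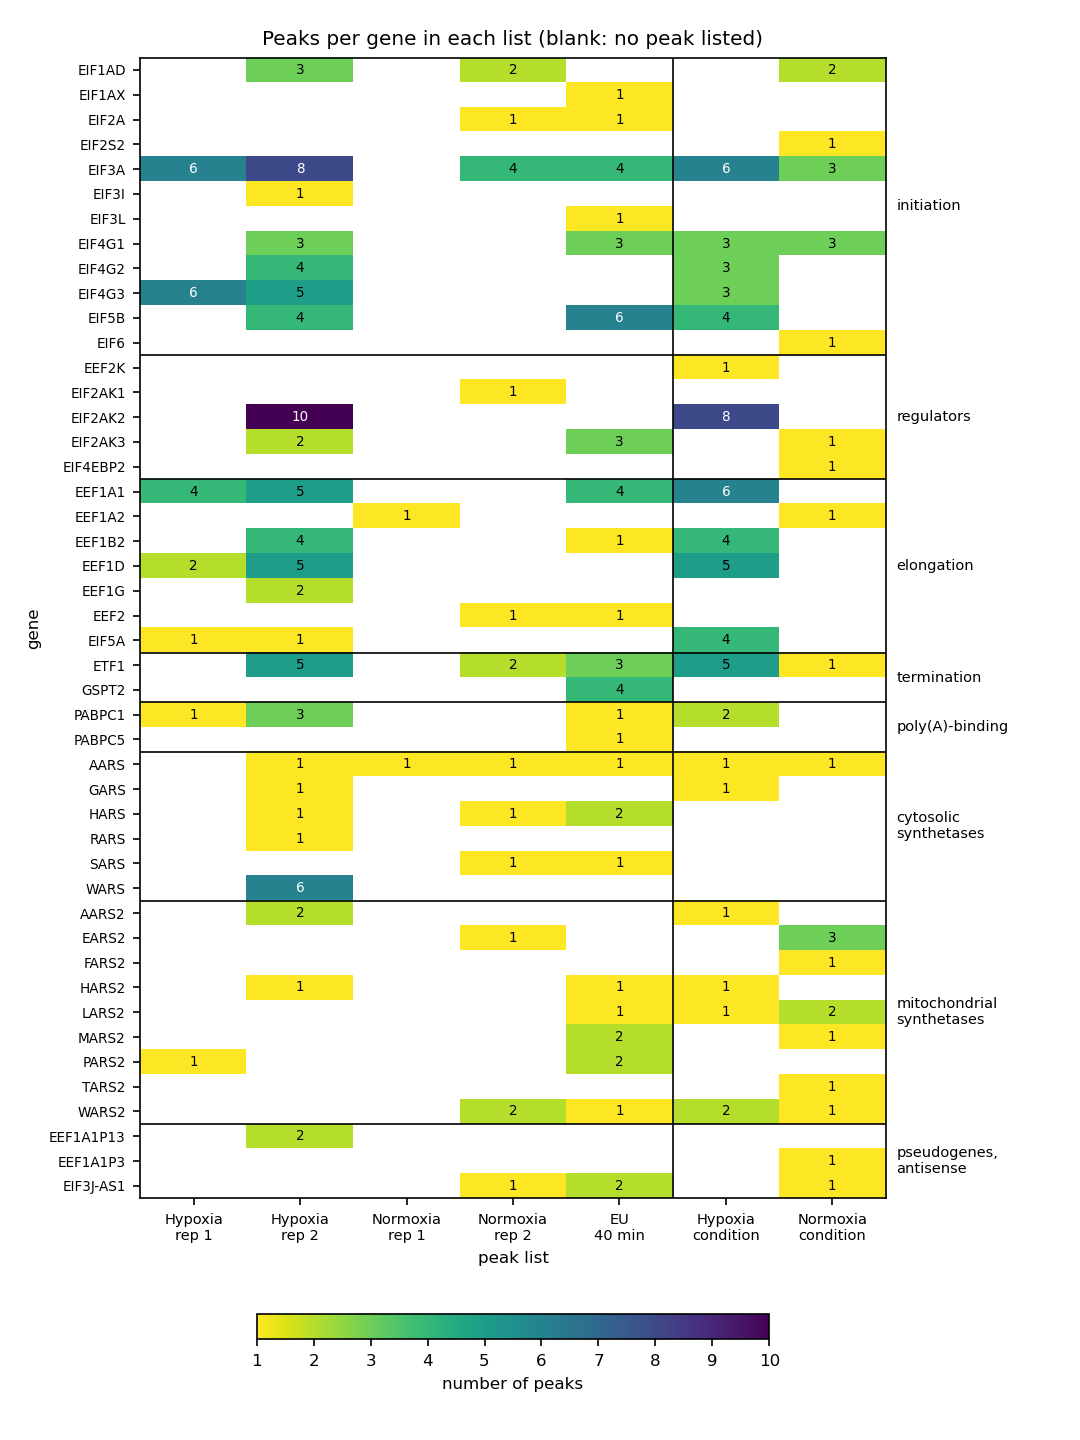
Number of peaks of each member (rows, grouped by role) in each list (columns: 5 libraries, then the 2 condition lists); blank cells have no listed peak, and not every member is drawn. EIF3A and AARS are the only rows with a peak in 4 of the 5 libraries, and EIF2AK2 has the most peaks in a list, 10 in hypoxia replicate 2.

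Over the 4 hypoxia and normoxia libraries, 35 members had a peak. At least 1 hypoxia library listed 27 of them (77.1%, against 84.5% of the names with a peak in these 4) and at least 1 normoxia library 14 (40.0%, against 30.8%). Under both conditions 6 members were listed (17.1%, against 15.4%), AARS, EIF1AD, EIF3A, ETF1 and HARS among them, and no elongation factor was. Both hypoxia libraries listed 6 members (17.1%, against 21.1%). In both hypoxia libraries and neither normoxia library there were 5 of these 35 (14.3%, against 15.3% of the 3226 names with a peak in these libraries), a share near the background. The reverse pattern, both normoxia libraries and neither hypoxia library, was found for 0 of 35 (background 0.155%). The 5 were EEF1A1, EEF1D and EIF5A among 7 elongation factors, the initiation scaffold EIF4G3, and the poly(A)-binding protein PABPC1; none of the 12 synthetases with a peak in these libraries was among them. Hypoxia replicate 2 was the sole one of these 4 libraries for 15 of the 35 (42.9%, background 39.0%). Over all 5 libraries, 41 members had a peak and 19 of them had it in 1 library alone (46.3%, background 60.8%).

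The call depended on how many peaks of large p were kept. When hypoxia replicates 1 and 2 were each shortened to their 1563 peaks of smallest p, the length of normoxia replicate 2, they listed 4 (8.33%, against 13.9% of all names) and 7 (14.6%, against 12.5%) members, beside the 13 of normoxia replicate 2 (27.1%, against 17.9%). EIF4G3 was then the 1 member of 23 in both hypoxia libraries and neither normoxia library (4.35%, background 5.43%), and AARS the 1 member in both normoxia libraries and neither hypoxia library (4.35%, background 1.13%). EEF1A1 and PABPC1 dropped out of both shortened hypoxia lists, and EEF1D and EIF5A out of replicate 2. EIF3A also dropped out of both shortened hypoxia lists and stayed in normoxia replicate 2. This shortening was chosen after the data were seen.

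**Figure D2:**
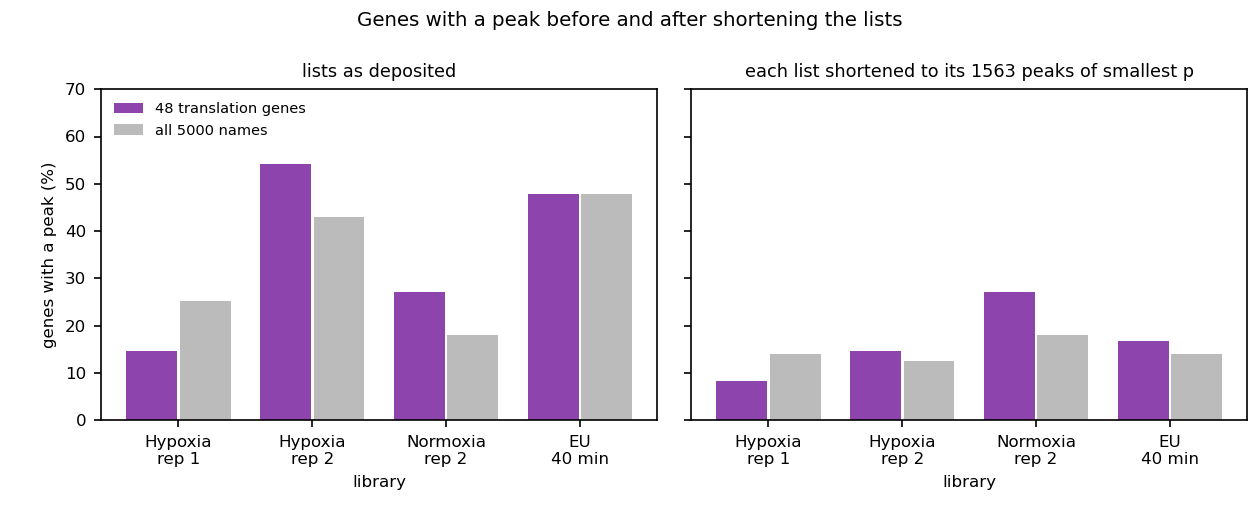
Percent of the 48 members (purple) and of all 5000 names (grey) with a peak in hypoxia replicates 1 and 2, normoxia replicate 2 and the EU 40min library, as deposited (left) and with each list shortened to its 1563 peaks of smallest p (right). Hypoxia replicate 2 falls from 54.2% to 14.6% of the members and normoxia replicate 2 stays at 27.1%; normoxia replicate 1, with 212 peaks, is not drawn.

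Among the 13 initiation genes, 2 had a peak in hypoxia replicate 1 (15.4%, against 25.2% of all names) and 8 in replicate 2 (61.5%, against 43.0%). In the normoxia libraries 0 and 3 had one (23.1% in replicate 2, against 17.9%), and in the EU 40min library 6 did (46.2%, against 47.8%). EIF3A, the largest subunit and scaffold of the eIF3 complex, had 6 and 8 peaks in the hypoxia libraries, 0 and 4 in the normoxia libraries and 4 in the EU 40min library. Only normoxia replicate 1, the shortest list, lacked it. All 4 of its normoxia replicate 2 peaks overlapped an EU 40min peak, and all 4 overlapped a peak of hypoxia replicate 2. The shared bases were 799 with the EU 40min library and 205 with hypoxia replicate 2. The normoxia peak at chr10:119035904-119036004 shared only its base at 119036004 with hypoxia replicate 2. The normoxia peaks were centred at 81.6% or more of the gene's length from its start, whereas each hypoxia library also had a spliced peak near the start, centred at 7.4% and 7.5% of the length (chr10:119073835-119080823 in hypoxia replicate 1, hg38, minus strand, and chr10:119073885-119080674 in replicate 2). By deposited p these 2 peaks ranked 2141 of 2879 and 5214 of 6621, past the 1563 peaks that normoxia replicate 2 held. List length and condition cannot be told apart in this difference.

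The eIF4G family, the scaffolds of cap-dependent initiation, differed member by member. EIF4G3 had 6 and 5 peaks in the hypoxia libraries, 0 and 0 in the normoxia libraries and 0 in the EU 40min library, with a smallest deposited p of 3.1e-06 and 3.1e-07 in the hypoxia libraries. These peaks were at different places: 1 of the 6 peaks of hypoxia replicate 1 touched a peak of replicate 2, and the shared stretch was 1 base. Of all names in both hypoxia libraries and neither normoxia library, 91.1% had at least 1 overlapping site, by the same rule of 1 shared base. EIF4G1 had 3 peaks in hypoxia replicate 2, 3 in the EU 40min library and none in the other 3 libraries, and 2 of the 3 hypoxia peaks overlapped EU 40min peaks. The hypoxia and normoxia condition lists each held 3 EIF4G1 peaks as well. The peak at chr3:184321508-184321657 was in both the normoxia condition list and the EU 40min library. EIF4G2, which lacks the site for eIF4E and serves noncanonical initiation, had 4 peaks in hypoxia replicate 2, 3 in the hypoxia condition list and none elsewhere.

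EIF5B, the GTPase that joins the ribosomal subunits, had 4 peaks in hypoxia replicate 2 and 6 in the EU 40min library, of which 3 of the 4 overlapped. EIF1AD, named for its eIF1A-like domain, had 3 peaks in hypoxia replicate 2 and 2 in normoxia replicate 2. EIF2A, an alternative carrier of the initiator tRNA, had 1 peak each in normoxia replicate 2 and the EU 40min library, sharing 150 bases. EIF3I, an eIF3 subunit, had 1 peak in hypoxia replicate 2. EIF3L, another eIF3 subunit, and EIF1AX, which acts in scanning for the start codon, had 1 peak each in the EU 40min library alone, with deposited p of 1.3e-02 and 6.9e-05. EIF1AX has a near-identical copy, and reads from the 2 copies could be split between them. EIF2S2, the beta subunit of eIF2, and EIF6, which keeps the large subunit from joining early, had 1 peak each in the normoxia condition list and none in a library.

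Of the 5 regulators, the 3 eIF2 kinases had different patterns. EIF2AK2 (PKR, activated by double-stranded RNA and induced by interferon) had 10 peaks in hypoxia replicate 2, at a smallest deposited p of 9.3e-07, and 0 peaks in the other 4 libraries. EIF2AK3 (PERK, the kinase of endoplasmic reticulum stress) had 2 peaks in hypoxia replicate 2 and 3 in the EU 40min library, with no overlap between them. In the condition lists, EIF2AK3 had 1 peak under normoxia (deposited p 1.4e-05) and 0 under hypoxia. EIF2AK1 (HRI, the haem-regulated kinase) had 1 peak, in normoxia replicate 2. EEF2K, the kinase that restrains eEF2, was in the hypoxia condition list alone, and EIF4EBP2, an eIF4E-binding repressor, in the normoxia condition list alone. No regulator was therefore called in both libraries of a condition.

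The elongation factors gave 3 of the 5 genes found in both hypoxia libraries and neither normoxia library. EEF1A1, which delivers charged tRNA to the ribosome, had 4 and 5 peaks in the hypoxia libraries, 0 and 0 in the normoxia libraries and 4 in the EU 40min library. Its smallest deposited p was 2.6e-04 and 7.4e-05 in the hypoxia libraries and 2.5e-04 in the EU 40min library. All 4 peaks of hypoxia replicate 1 overlapped a replicate 2 peak, and 3 had identical blocks. All 4 also overlapped an EU 40min peak, and 2 had identical blocks, among them the spliced peak at chr6:73518440-73518926. EEF1A1 has many processed pseudogenes and a close paralog, EEF1A2, so reads could be shared between them; EEF1A1P13 had 2 peaks in hypoxia replicate 2, EEF1A1P3 had 1 in the normoxia condition list, and EEF1A2 had 1 in normoxia replicate 1.

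EEF1D, EEF1B2 and EEF1G form the exchange complex that reloads eEF1A with GTP. EEF1D had 2 and 5 peaks in the hypoxia libraries and 0 in each of the remaining 3, and 1 of its 2 replicate 1 peaks overlapped replicate 2. Its other replicate 1 peak, at chr8:143580176-143580507, had a deposited p of 1.7e-07, rank 38 of 2879, and shared no base with replicate 2. The nearest replicate 2 peak was at chr8:143580026-143580126, and the hypoxia condition list held a peak spanning both, at chr8:143580026-143580507. In replicate 2 the gene's smallest p was 2.3e-04. EEF1B2 had 4 peaks in hypoxia replicate 2 and 1 in the EU 40min library, at smallest deposited p of 3.5e-07 and 5.1e-07. The hypoxia peak that shared 148 bases with the EU 40min peak had a deposited p of 4.8e-07. EEF1G had 2 peaks in hypoxia replicate 2, at a smallest deposited p of 3.3e-07, and was absent from the hypoxia condition list. EIF5A, which relieves stalling at proline stretches, had 1 peak in each hypoxia library, at different sites with no shared base. EEF2, the translocase, had 1 peak in normoxia replicate 2 and 1 in the EU 40min library, sharing 150 bases. It had none in a hypoxia library, normoxia replicate 1 or a condition list.

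**Figure D3:**
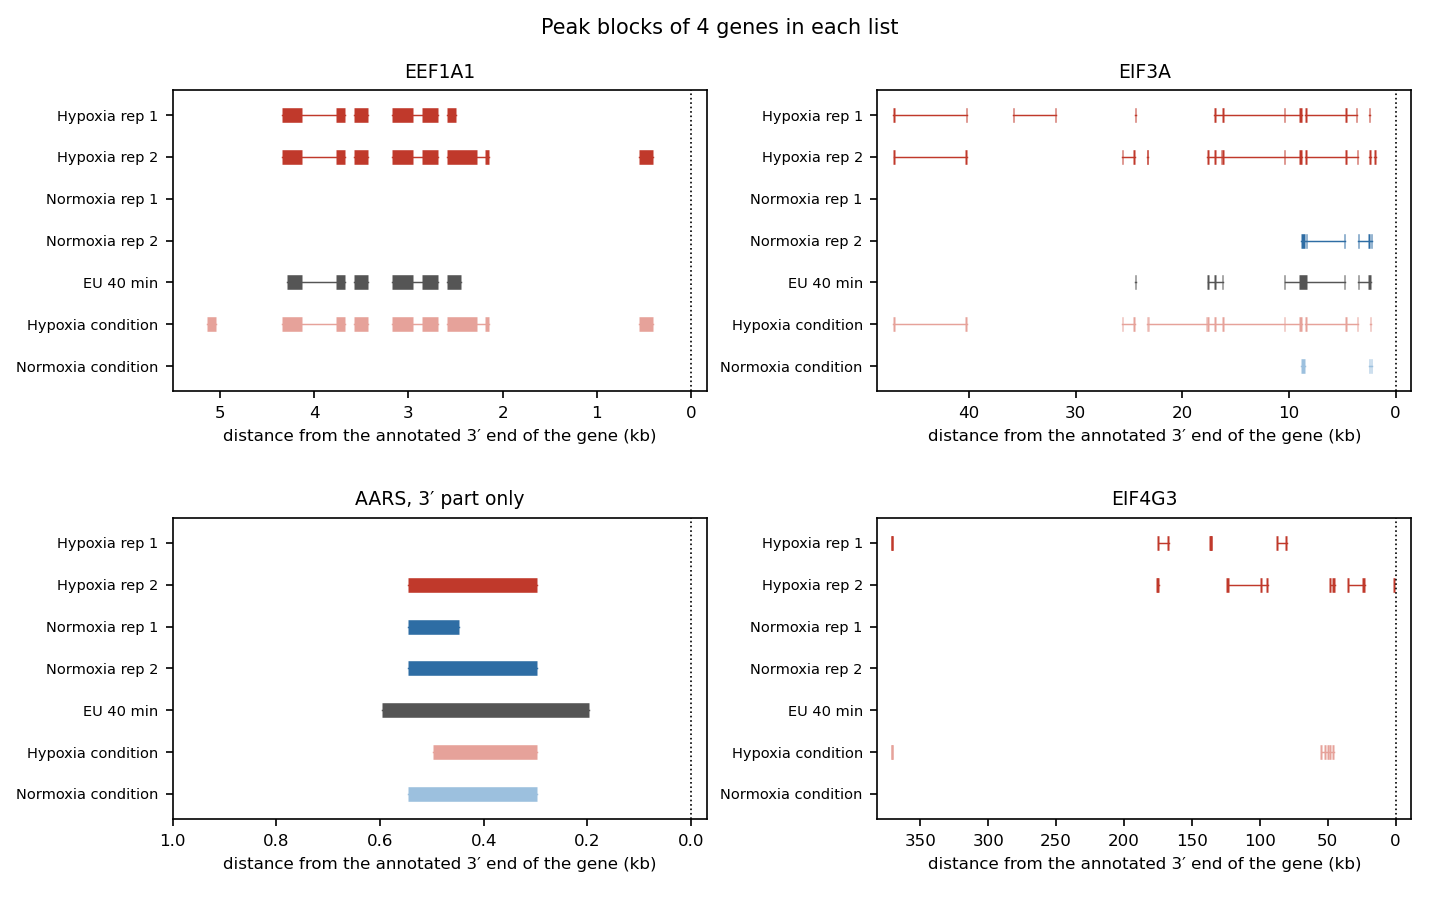
Peak blocks (thick) and the introns they span (thin) of EEF1A1, EIF3A, AARS and EIF4G3 in each list, by distance from the annotated 3′ end of the gene in kb. EEF1A1 blocks line up in hypoxia replicates 1 and 2 and the EU 40min library, AARS has 1 site near its end in 6 lists, and the EIF4G3 blocks of the hypoxia replicates lie at different places.

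ETF1 (eRF1), which reads the stop codon, had 5 peaks in hypoxia replicate 2, and normoxia replicate 2 and the EU 40min library held 2 and 3. Both normoxia peaks overlapped 1 peak of hypoxia replicate 2, with 151 shared bases in all, and 1 overlapped an EU 40min peak. The normoxia peak at chr5:138507925-138508024 shared only its base at 138508024 with the hypoxia peak. GSPT2, a GTPase partner of eRF1, had 4 peaks in the EU 40min library, at a smallest deposited p of 2.6e-07, and none in another list. PABPC1, the cytoplasmic poly(A)-binding protein, had 1 and 3 peaks in the hypoxia libraries, 0 and 0 in the normoxia libraries and 1 in the EU 40min library. The hypoxia replicate 1 peak shared 298 bases with replicate 2 and 100 with the EU 40min peak. Its paralog PABPC5 had 1 peak, in the EU 40min library alone.

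Of the 16 synthetases, 1 had a peak in hypoxia replicate 1 (6.25%, against 25.2% of all names) and 8 in hypoxia replicate 2 (against 43.0%). In the normoxia libraries 1 (6.25%, against 2.78%) and 6 (37.5%, against 17.9%) had one, and in the EU 40min library 8 did (against 47.8%). AARS, the cytosolic alanyl-tRNA synthetase, was the synthetase found in most libraries, with 1 peak each in hypoxia replicate 2, both normoxia libraries and the EU 40min library. All these peaks lay at 1 site, chr16:70252595-70252845 (hg38, minus strand) in hypoxia replicate 2 and normoxia replicate 2, centred 422 bases before the gene's annotated 3′ end. The deposited p was 8.5e-04, 1.9e-05, 6.5e-04 and 3.5e-06 in the 4 libraries in that order, and hypoxia replicate 1 had no AARS peak.

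HARS, the histidyl-tRNA synthetase, had 2 peaks in the EU 40min library and 1 each in hypoxia replicate 2 and normoxia replicate 2. The normoxia peak shared 251 bases with an EU 40min peak, and the hypoxia peak overlapped neither. HARS2, its mitochondrial counterpart, is a head-to-head neighbour of HARS and had 1 peak each in hypoxia replicate 2 and the EU 40min library, not overlapping. SARS, for serine, had 1 peak each in normoxia replicate 2 (deposited p 1.3e-06) and the EU 40min library, sharing 100 bases. WARS, the interferon-induced tryptophanyl-tRNA synthetase, had 6 peaks in hypoxia replicate 2, at a smallest p of 1.7e-06, and none in another list, the hypoxia condition list included. GARS and RARS, for glycine and arginine, had 1 peak each in hypoxia replicate 2 alone of the 5 libraries. The RARS peak began 24 bases after the annotated start of the gene. Its part within the RefSeq start window is printed with an ATG in capitals; an earlier ATG lies upstream of the peak.
RARS: gaggATGgacgtactggtgtctgagt

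WARS and EIF2AK2, whose 6 and 10 library peaks were all in hypoxia replicate 2, are textbook interferon-induced genes. For each, a RefSeq start window (250 bases before to 50 after a start) held GAAA, 2 bases of any kind and GAAA, the core of the interferon-stimulated response element. The pattern, searched on both strands, was in the windows of 5 of the 37 members, the others being EARS2, EIF2A and EIF6, and, counted by gene in the same way, of 4.38% of RefSeq genes and 4.28% of the lists' matched names (3.57% of all windows); in EIF2A the match overlaps the pyrimidine tract printed above. Library peaks in hypoxia replicate 2 alone were also found for other members, EIF4G2, EEF1G, GARS and RARS among them. EARS2, EIF2A and EIF6 had no peak in a hypoxia library. Whether interferon bears on these lists was not tested. The matches of EIF2AK2 and WARS are printed on the gene's strand with 10 bases on each side, the match in capitals, and they are a description of the letters alone.
EIF2AK2: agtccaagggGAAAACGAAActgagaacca
WARS: tttcagaaggGAAACTGAAAgaaagagggg

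The mitochondrial synthetases were the class with the largest share in the normoxia condition list, 7 of 10 (where 24.6% of all names were listed), against 4 of 10 in the hypoxia condition list (where 52.7% were). EARS2, FARS2, MARS2 and TARS2, for glutamate, phenylalanine, methionine and threonine, were in the normoxia condition list and not the hypoxia one, AARS2 and HARS2 the other way round, and LARS2 and WARS2 in both. In the libraries, 1 of 10 had a peak in hypoxia replicate 1 (where 25.2% of all names did), 3 in hypoxia replicate 2 (43.0%), 0 in normoxia replicate 1 (2.78%) and 3 in normoxia replicate 2 (17.9%). FARS2 and TARS2 had no peak in any library, and LARS2 and MARS2 had peaks in the EU 40min library only. EARS2 had 1 peak in normoxia replicate 2 and 3 in the normoxia condition list, at a smallest deposited p of 5.2e-07 there. PARS2, for proline, was the only synthetase among the members with a peak in hypoxia replicate 1. Its peak there overlapped neither of its 2 EU 40min peaks. FARSB, a synthetase gene outside the rule, also had 1 peak in hypoxia replicate 1.

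**Figure D4:**
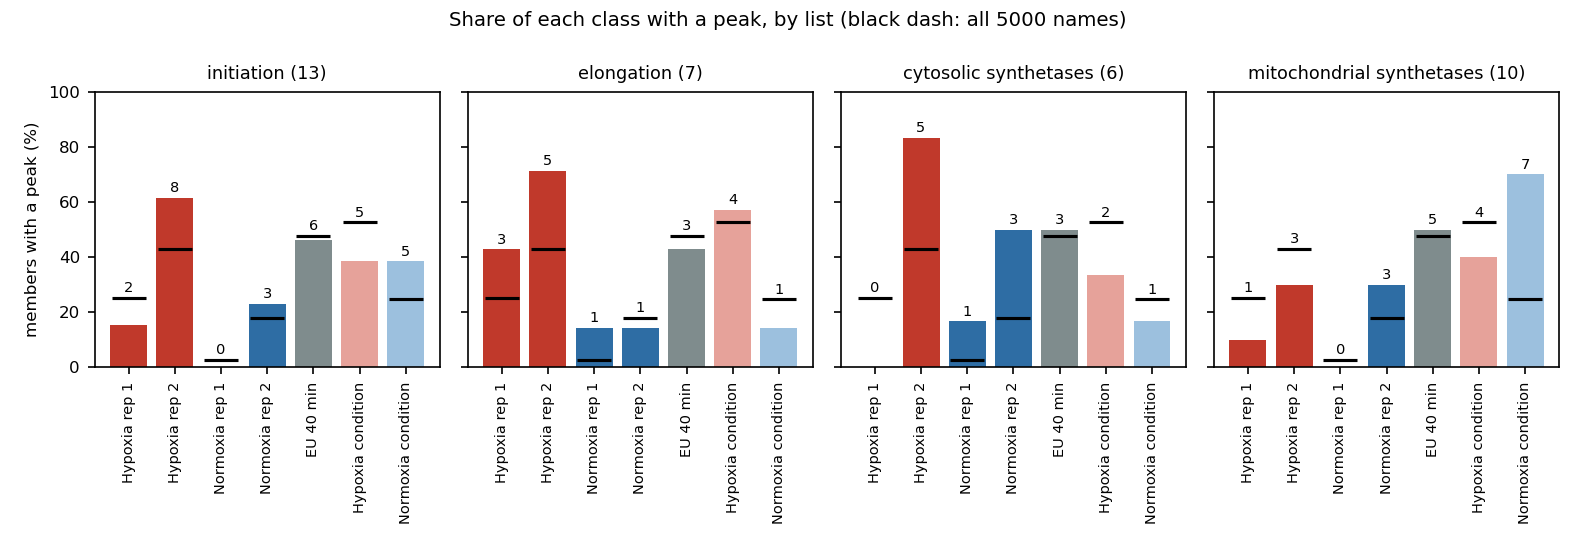
Percent of the members of 4 classes with a peak in each list, with the number of members above each bar and the share of all 5000 names as a black dash. Elongation factors stand above the dash in both hypoxia libraries (3 and 5 of 7), and mitochondrial synthetases stand above it in the normoxia condition list (7 of 10) and below it in both hypoxia libraries (1 and 3 of 10).

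Over all classes, each condition list held 19 of the 48 members (39.6%), against 52.7% of all names in the hypoxia list and 24.6% in the normoxia list. Of the 32 members in at least 1 condition list, 13 were in the hypoxia list only (40.6%, against 62.8% of names), 13 in the normoxia list only (40.6%, against 20.3%) and 6 in both (18.8%, against 16.9%). The 6 in both were AARS, EIF3A, EIF4G1, ETF1, LARS2 and WARS2. Of 5 elongation factors in at least 1 condition list, EEF1A1, EEF1B2, EEF1D and EIF5A were in the hypoxia list only, where 62.8% of names were, and EEF1A2 was in the normoxia list only. With the hypoxia condition list shortened to its 2285 peaks of smallest p, the length of the normoxia list, it held 2 members, EEF1B2 and EIF2AK2 (4.17%, against 16.6% of names), so that 1 of the 7 elongation factors was left in each condition list. The condition lists and the libraries often differed: neither normoxia library listed 10 of the 19 members of the normoxia list (52.6%, against 42.9% of names), and neither hypoxia library listed 3 of the 19 of the hypoxia list, EEF2K, LARS2 and WARS2 (15.8%, against 26.5%). Conversely, 11 of the 27 members with a peak in a hypoxia library were missing from the hypoxia condition list (40.7%, against 28.9%), WARS and EEF1G among them.

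The EU 40min library listed 23 members, and 6 of the 41 members with a peak in any library had it there alone (14.6%, against 25.4% of names): EIF1AX, EIF3L, GSPT2, LARS2, MARS2 and PABPC5. MARS2 and GSPT2 had deposited p values of 2.8e-08 and 2.6e-07 there, which with that of EIF3J-AS1 were the smallest of the members in that list. EIF3J-AS1, an RNA transcribed away from the shared start of the eIF3 subunit gene EIF3J, had 2 peaks there at a smallest p of 9.3e-08 and 1 in normoxia replicate 2. Of the 19 members in the hypoxia condition list, 11 had an EU 40min peak (57.9%, against 39.1% of the names in that list), and of the 19 in the normoxia condition list, 9 did (47.4%, against 55.8%). Of the 13 in the hypoxia list only, 5 did (38.5%, against 30.2%), and of the 13 in the normoxia list only, 3 did (23.1%, against 42.3%). By site, 12 of the 19 member peaks of normoxia replicate 2 (63.2%, exact 95% binomial interval 38.4% to 83.7%) overlapped an EU 40min peak, against 54.1% of all its peaks. Of the 21 member peaks of hypoxia replicate 1, 11 overlapped replicate 2 (52.4%, 29.8% to 74.3%), against 47.4% of all. These intervals cover counting error only, and peaks of 1 gene are not independent.

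Along the genes, 15.8% of the 259 member peaks were centred within 1 kb of the annotated gene end, against 15.0% of all peaks with a RefSeq position. Cytosolic synthetases had 11 of 21 peaks there (52.4%), 6 of them the AARS site counted in 6 lists. Initiation genes had 8.6% of 93 peaks there, and EIF3A, with 31 of the 93, had none there. Counted by gene, 4 of 6 cytosolic synthetases (AARS, GARS, HARS and WARS) and 5 of 7 elongation factors had such a peak in at least 1 list, as did 4 of 13 initiation genes and 4 of 10 mitochondrial synthetases. Over all members it was 21 of 48 (43.8%), against 36.0% of all 4575 matched names. Peaks made of 2 or more exon blocks made up 42.1% of member peaks and 29.3% of all peaks, but counted by gene, 25 of 48 members (52.1%) had such a peak, against 50.5% of all matched names. They were 53.8% of initiation, 51.9% of elongation and 9.68% of mitochondrial synthetase peaks. Without EIF3A they were 39.0% of member peaks. In normoxia replicate 2, 26.3% of member peaks were of this kind (5 of 19), against 9.92% of all, and without EIF3A the members had 3 of 15.

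Genes that act on or beside these factors were also looked up. From lists of related genes, 2 of 6 synthetase and scaffold genes whose symbols fall outside the rule had a peak in any list (AIMP2 and FARSB), 5 of 17 of the mTOR arm (DDIT4, LARP1, MTOR, RPS6KB1 and TSC1), 3 of 9 of the stress response arm (GCN1, PPP1R15B and TRIB3), 6 of 13 recycling and helper genes, and 2 of 8 mitochondrial translation factors (TSFM and TUFM). LARP1 binds the oligopyrimidine tract, DDIT4 is a hypoxia-induced inhibitor of mTOR, and GCN1 activates the remaining eIF2 kinase. None of these genes had a peak in both hypoxia libraries and neither normoxia library, or the reverse. Of the 3226 names with a peak in these libraries, 15.3% had the first pattern and 0.155% the reverse. Not all of the genes looked up had a peak in these libraries.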

How the data were processed

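Per the submitters' processing notes, reads were aligned with STAR to hg38; the peak caller, its threshold, its annotation and any use of strand are not given in the sources used here. In all, the authors deposited 7 lists in 12-column BED form, with a gene name in column 4 and exon blocks. Column 5 held values from 0 to 0.013 and was read as the p-value that the authors' caller gave each deposited peak. It was used to rank peaks within a list, and each file was already in its order. Values printed from several lists are a description, and no test compared them. Peaks of the same gene in a list often shared a p. Of the 54 member gene and list pairs with several peaks, 36 had a repeated p (66.7%). Over all names it was 62.7% of 6353 such pairs. Peak counts of a gene are therefore not counts of independent calls. Members, role classes and related gene lists were chosen with earlier results of these data known.

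Python 3.11.15 with pandas 2.3.3 and numpy 2.4.6 read the lists. Peaks overlapped where their blocks shared at least 1 base on 1 strand, which was checked on simulated peaks. Intervals are exact binomial (scipy 1.17.1). Of the 5000 names, 4575 (91.5%), all 48 members included, matched RefSeq GRCh38.p14 genes, used for positions only within 10 kb of the peak. Every member could be named; genes called in 1 condition, genes in 4 or 5 libraries and genes of small p were given in full. The values of 1 further member are not reported here. With peak calls in place of counts, comparisons are counts of genes and sites, with no test. No genome was used, so the m6A motif in peaks was not analysed here. Alternatives were a stricter p, wider peaks, chromosomes 1 to 22 and X, equal list lengths, leaving out each replicate, core factors only and the condition lists.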

Additional observations from a re-analysis of the deposited data

How the results depend on the processing

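Of 65 recomputed values over 11 results, 34 stayed within 1.5 times a count or within a share's interval and 31 moved. The 5 genes called in hypoxia only became 1 with the 50% of peaks of smallest p, 3 with wide peaks only (no narrower than the median, 151 bases), 0 with at most 212 peaks a list, 1 (EIF4G3) with at most 1563, and 13 if taken from the condition lists. Leaving out 1 replicate gave 5 to 20, and the 20 was without hypoxia replicate 1. The 0 genes called in normoxia only became 1 (AARS) at 1563 peaks, 13 if taken from the condition lists, and 0 to 7 with 1 replicate left out, the 7 without normoxia replicate 1. The 27 members in a hypoxia library became 10 at the stricter p, 1 at 212 peaks, 10 at 1563 peaks, and 7 to 26 with 1 replicate left out, the 7 without replicate 2. The 14 in a normoxia library became 4 at the stricter p, 5 with wide peaks, 3 at 212 peaks, and 2 to 13 with 1 replicate left out, the 2 without replicate 2. The 23 in the EU 40min list became 12, 2 at 212 peaks and 8 at 1563 peaks. The 19 in the hypoxia condition list became 4, 0 at 212 peaks and 2 at 2285 peaks; the 19 in the normoxia one became 7, 10 with wide peaks and 2 at 212 peaks. The share of hypoxia replicate 1 peaks overlapped by replicate 2 became 12.5% (1 of 8 peaks) at the stricter p, and that of normoxia replicate 2 by the EU 40min library 0% (0 of 5) at the stricter p and 100% (5 of 5) with wide peaks. Fewer peaks or libraries enter these settings by construction, except for the condition lists, where the cause was not tested. The shortenings to 1563 and 2285 peaks were chosen after seeing the data. No paired analysis was possible because the results are counts of listed genes and sites and come from no test. With 2, 2 and 1 libraries and no read counts, a missing peak could not be told apart from low depth.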
